A study of Arabidopsis thaliana with 6 samples.

Results

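This report describes rbcL, accD, psaI and ycf4, 4 neighbouring protein genes of the plastid genome of Arabidopsis thaliana, across 6 Affymetrix arrays. The genes were chosen by their deposited values over all 6 arrays, with their pattern by group and by replicate number already known, so those values are given below as a description with no test. The 4 are among 69 plastid-encoded protein genes that could be matched to a probe set of their own, and among 22746 probe sets in all. Each was measured by 1 probe set: 245015_at for rbcL (locus tag ArthCp030), 245016_at for accD (ArthCp031), 245017_at for psaI (ArthCp032) and 245018_at for ycf4 (ArthCp033). No filter on low values was applied, so all 4 are covered.

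The study set empty-vector plants, carrying pCAMBIA 1302, against transgenic 35S-PaWRKY1 plants, with 3 arrays per group labelled as biological replicates 1 to 3. All plants were whole seedlings, roots with shoots, aged 7 days, raised on full-strength MS from seed vernalized for 2 days. The 35S promoter of cauliflower mosaic virus is active in most tissues, and PaWRKY1 is named for the WRKY family of plant transcription factors. The labels do not say how many transgenic lines, seedlings or sowings stand behind the replicates, so SE and p-values reflect only how these samples varied, which may be technical. The transgene was not analysed here.

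The plastid genome is transcribed by a bacterial-type RNA polymerase whose core subunits the plastid itself encodes, and by phage-type polymerases imported from the nucleus. Neighbouring plastid genes are often transcribed together and the long transcripts are then cut and trimmed, and plastid mRNAs mostly lack the long poly(A) tails of nuclear mRNAs. rbcL encodes the large subunit of Rubisco, which fixes carbon dioxide, and is read mainly by the plastid-encoded polymerase. accD encodes a carboxyltransferase subunit of the plastid acetyl-CoA carboxylase, which starts fatty acid synthesis, and is a textbook target of the nuclear-encoded polymerase. psaI encodes a small membrane subunit of photosystem I, and ycf4 a thylakoid protein that helps assemble photosystem I.

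Each deposited value is a difference from the mean of the 3 control arrays on a log scale, read as log2. The files therefore hold no expression level, and the levels of the 4 genes cannot be ranked against each other. A higher value is taken as more transcript, by convention. For the same reason the seedling label could not be checked by the presence of shoot or root markers, only by whether such markers differed between arrays.

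All 4 genes varied mostly with the replicate number and little with the genotype. On both replicate 3 arrays, control and 35S-PaWRKY1 alike, every one of the 4 lay at 1.26 or above, and on the other 4 arrays every one lay at -0.39 or below. For the carbon fixation gene rbcL, the control arrays read -0.39, -1.19 and 1.57 for replicates 1 to 3, and the 35S-PaWRKY1 arrays -1.21, -0.89 and 1.98. The 2 genotype groups overlapped, and the replicate 3 arrays stood apart in each.

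For accD, of fatty acid synthesis, the control arrays read -0.94, -0.99 and 1.93, and the 35S-PaWRKY1 arrays -0.68, -0.72 and 2.1. Replicates 1 and 2 were close together in each group, and replicate 3 was again the high array. For psaI, the photosystem I subunit, the control arrays read -0.63, -0.63 and 1.26, and the 35S-PaWRKY1 arrays -0.45, -0.52 and 1.46. For ycf4, the photosystem I assembly gene, the control arrays read -0.84, -0.76 and 1.60, and the 35S-PaWRKY1 arrays -0.77, -0.60 and 1.57. Both showed 2 low arrays and 1 high array in each group, as accD did, and the genotype groups overlapped. In RNA of whole seedlings, fewer cells of a type and less RNA per cell cannot be told apart. The nuclear shoot markers RCA, LHCB4.1 and SBPASE averaged -0.06 to 0.05 on all 6 arrays.

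**Figure D1:**
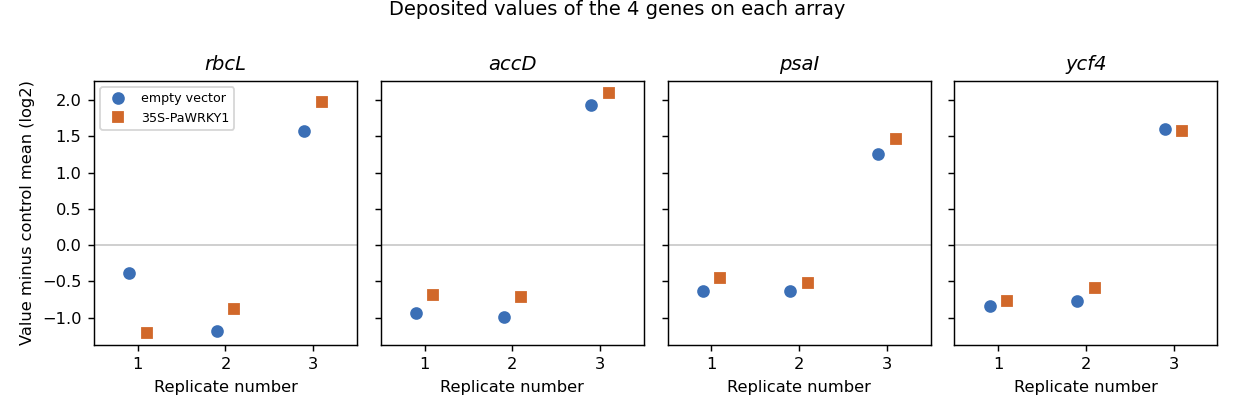
Deposited value of each gene (y axis, log2 difference from the mean of the control arrays) against replicate number (x axis), with circles for empty-vector and squares for 35S-PaWRKY1 arrays, 1 array per point. Both replicate 3 arrays lie at 1.26 or above for all 4 genes, and the other arrays at -0.39 or below.

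In the deposited values, the distance of replicate 3 from the mean of the other arrays of its group was similar in the 2 genotypes for accD, ycf4 and psaI. It was 2.89 in control and 2.80 in 35S-PaWRKY1 for accD, which is 7.43-fold and 6.96-fold if the values are log2. It was 2.40 and 2.26 for ycf4, or 5.29-fold and 4.78-fold on that reading. psaI had the smallest distance of the 4, at 1.89 and 1.94 (3.70-fold and 3.84-fold). rbcL had 2.36 in control and 3.03 in 35S-PaWRKY1 (5.13-fold and 8.14-fold), the widest gap between the genotypes. After a normalization of the arrays to equal quantiles, the distance was instead larger in control for all 4 genes, with the narrowest gap for rbcL (2.76 and 2.55). With 1 array for each genotype and number, whether such a distance differs between genotypes was not tested.

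Replicates 1 and 2 differed little for 3 of the 4 genes. Replicate 1 minus replicate 2 was 0.04 in control and 0.04 in 35S-PaWRKY1 for accD, 0.01 and 0.07 for psaI, and -0.07 and -0.18 for ycf4. rbcL was the exception, at 0.80 in control and -0.32 in 35S-PaWRKY1. The control replicate 1 array is the one on which rbcL, at -0.39, had the highest value of the 4 genes, whereas on the other 3 arrays of replicates 1 and 2 it had the lowest.

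Within an array the 4 genes differed less than replicate 3 did from the other arrays. The range over the 4 was 0.37 to 0.76 on single arrays, against distances of 1.89 to 3.03 between replicate 3 and the others. Over the 6 arrays, the root mean square difference was smallest between psaI and ycf4, at 0.23, and between accD and ycf4, at 0.28. It was largest between rbcL and psaI, at 0.49. Each of the 4 was nearer to a plastid-encoded gene outside the 4 than to any other of the 4. These were ycf3 for psaI (0.098), rps2 for ycf4 (0.16) and for accD (0.19), and rps15 for rbcL (0.26). The closeness was therefore not particular to the 4. accD minus psaI ran from -0.35 to -0.20 on the arrays of replicates 1 and 2 and was 0.67 and 0.64 on the replicate 3 arrays, so accD swung more widely than psaI in both genotypes.

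The genotype comparison asks what differs when PaWRKY1 is expressed from the 35S promoter. For the 4 genes the group difference, 35S-PaWRKY1 minus control, was small beside the spread within each group. It was 0.23 for accD (SE 1.03, n = 3 per group), where the SD was 1.67 in control and 1.62 in 35S-PaWRKY1. It was 0.16 for psaI (SE 0.69), 0.07 for ycf4 (SE 0.84) and -0.04 for rbcL (SE 1.00). The SE values come from the limma fit over all probe sets, in which 0.0308% of them (7 of 22746) passed an adjusted p of 0.05. The median difference was 0.12 over the 4 genes and -0.04 over all probe sets.

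Leaving out 1 array made the replicate numbers unequal between the groups, so these differences then mixed the genotype with the number. Their sign followed the array left out. Without control replicate 3 they were 1.20 for accD, 0.79 for psaI, 0.87 for ycf4 and 0.75 for rbcL. Without 35S-PaWRKY1 replicate 3 they were -0.70, -0.48, -0.68 and -1.05 in the same order. Leaving out control replicate 1 or 2 also put all 4 below control, at -0.63 to -0.15, and leaving out 35S-PaWRKY1 replicate 1 or 2 put all 4 above, at 0.38 to 0.71. Without both replicate 3 arrays, which keeps the numbers balanced, the differences were 0.26 for accD, 0.15 for psaI, 0.12 for ycf4 and -0.26 for rbcL. Each had the same sign as in the fit of all arrays. With array weights in limma, rbcL turned to 0.11, with 0.33 for accD, 0.20 for psaI and 0.16 for ycf4. After equal quantiles the differences were 0.33 for accD, 0.17 for psaI, 0.18 for ycf4 and -0.06 for rbcL.

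Taking the replicate number as a block compares arrays of the same number. For accD, 35S-PaWRKY1 minus control was 0.26, 0.27 and 0.17 for numbers 1, 2 and 3, and for psaI it was 0.18, 0.11 and 0.20. Both genes were higher in 35S-PaWRKY1 at every number, by small amounts. For ycf4 the differences were 0.06, 0.17 and -0.03, and for rbcL -0.82, 0.30 and 0.41, so neither had 1 direction. With the replicate block the SE fell from 1.03 to 0.087 for accD, from 0.69 to 0.087 for psaI, from 0.84 to 0.092 for ycf4 and from 1.00 to 0.25 for rbcL, with the group differences the same. limma draws each SE towards the spread over all probe sets, so these SE are not the scatter of the single genes alone. The SD of the same-number differences was 0.055 for accD, 0.046 for psaI, 0.10 for ycf4 and 0.68 for rbcL. Over all probe sets, 12.3% were higher in 35S-PaWRKY1 at all 3 numbers, as were 6 of the 65 other plastid-encoded genes.

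**Figure D2:**
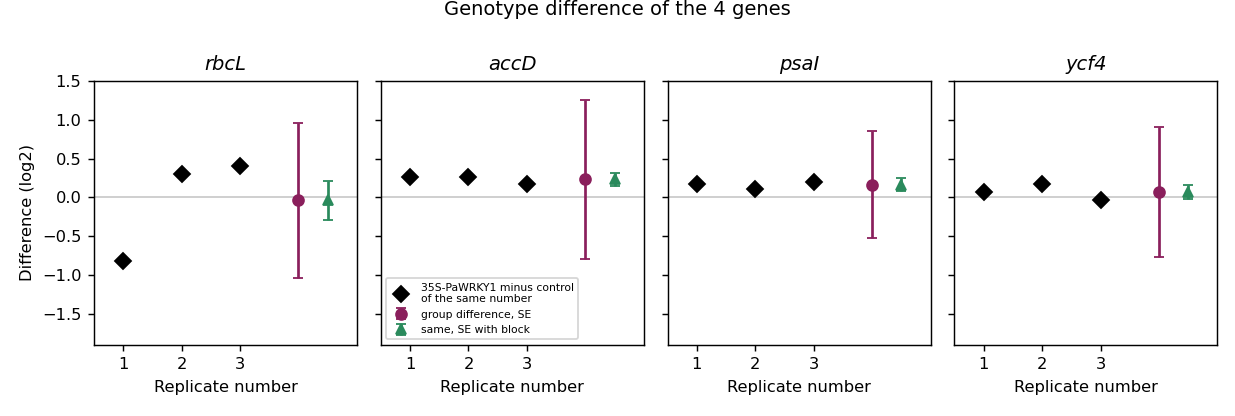
35S-PaWRKY1 minus control (y axis, log2) for arrays of the same replicate number (diamonds, x axis 1 to 3), and to their right the group difference with its SE without (circle) and with (triangle) the replicate number as a block. The bars shrink with the block for all 4 genes, and rbcL shows the widest scatter, from -0.82 to 0.41.

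The neighbours of the 4 genes on the plastid genome had the same pattern. In the order given by RefSeq's table for assembly TAIR10.1, atpE and atpB precede rbcL, and cemA and petA follow ycf4. Their values are not among those by which the 4 genes were chosen. The replicate number was tested on them with a moderated F test in limma beside the genotype. Earlier results of these data were known when the neighbours and the lists were named. The p-values for the replicate number, here and for the other plastid-encoded genes below, therefore describe a pattern already seen. The genes share 1 genome and the same 6 arrays, so they are not independent of the 4. cemA, for a chloroplast envelope protein, read -0.61, -0.56 and 1.17 in control and -0.65, -0.46 and 1.20 in 35S-PaWRKY1, with an adjusted p of 0.0075 for the replicate number in limma. petA, for cytochrome f, read -0.42, -0.76 and 1.17 in control and -0.54, -0.54 and 1.40 in 35S-PaWRKY1, with an adjusted p of 0.0115 in limma. Both changed with the number and were high on the replicate 3 arrays of each genotype.

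On the other side, atpB and atpE encode the beta and epsilon subunits of the plastid ATP synthase. atpB was 1.87 higher on replicate 3 than the mean of the other two arrays in control and 1.77 higher in 35S-PaWRKY1 (limma adjusted p 0.0182 for the replicate number). atpE was 1.38 and 1.1 higher (adjusted p 0.0348). In the genotype comparison of limma, 0 of these 4 neighbours passed, where 0.0308% of all probe sets did. Their differences were -0.03 to 0.11, at adjusted p of 0.983 or above. With the replicate number as a block, their adjusted p in limma was 0.754 or above. The pattern broke off next to atpE at ndhC, an NDH complex gene, with -0.10 and 0.04 for the same distance, and resumed at ndhK with 2.05 and 1.82.

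Over the plastid genome as a whole, 30 of the 65 other genes passed the test of the replicate number in limma (46.2%), where 0.426% of all probe sets did (97 of 22746). Of the 30, 29 were higher on replicate 3 than on the other arrays in both genotypes and 1 was lower. Most of the 97 were not among the plastid probe sets of 1 gene each. Outside these, 63 of 22677 passed (0.278%), with 28 higher on replicate 3 in both genotypes and 35 lower. The 22677 include probe sets with no gene or several genes listed, so any that measure plastid genes were not told apart. The median distance of replicate 3 from the mean of the other two arrays was 1.28 in control and 1.31 in 35S-PaWRKY1 over the 65 genes. It was 0.02 and -0.02 over all probe sets. After a normalization of the arrays to equal quantiles, 0 probe sets passed the test of the replicate number, with 2374 at an unadjusted p under 0.05 against 2916 before.

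**Figure D3:**
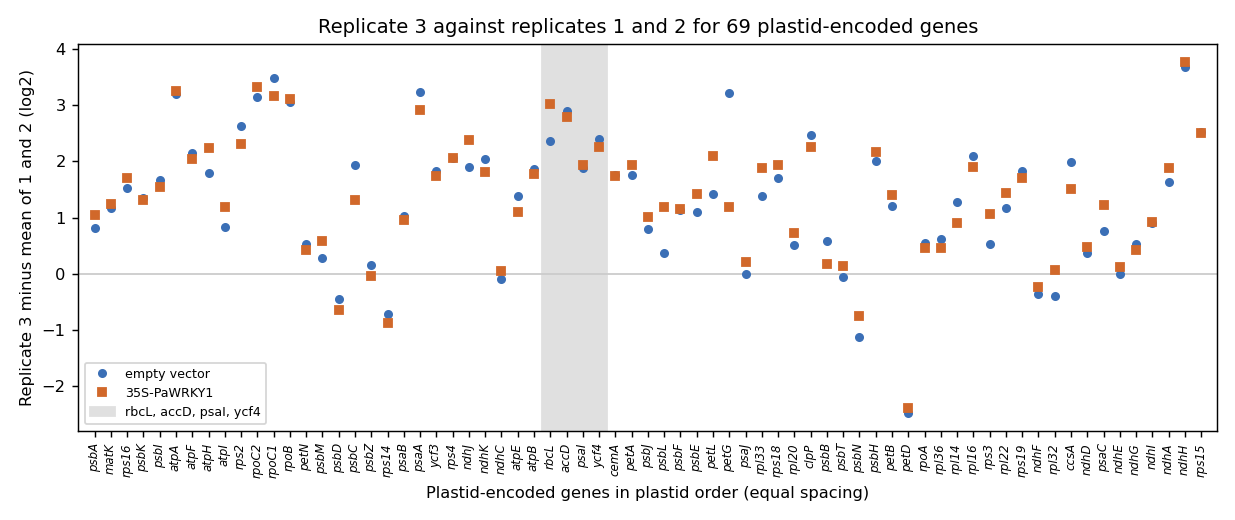
Distance of replicate 3 from the mean of replicates 1 and 2 (y axis, log2) for 69 plastid-encoded genes in plastid order, equally spaced (x axis), with circles for empty-vector and squares for 35S-PaWRKY1 arrays and a grey band over rbcL, accD, psaI and ycf4. The band lies at 1.89 to 3.03, within a range of -2.48 to 3.78 over the other genes, and the 2 genotypes lie widest apart at petG, at 3.23 in control and 1.19 in 35S-PaWRKY1.

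The 4 genes lay in the upper part of this distribution, as a description. Ranked by the distance of replicate 3 among the 69 plastid-encoded genes, accD was 8th in control and 8th in 35S-PaWRKY1, ycf4 12th and 12th, rbcL 13th and 6th, and psaI 22nd and 20th. Taken relative to the mean of the 65 other plastid-encoded genes on the same array, the distance was 1.64 in control and 1.52 in 35S-PaWRKY1 for accD, 1.11 and 1.75 for rbcL, 1.15 and 0.98 for ycf4 and 0.64 and 0.66 for psaI. On the same relative scale, the genotype differences were 0.19 for accD, 0.12 for psaI, 0.03 for ycf4 and -0.08 for rbcL.

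By function, the plastid genes nearest in role to psaI and ycf4 were those of photosystem I and its assembly. All 5 others (psaA, psaB, psaC, psaJ and ycf3) were higher on replicate 3 in both genotypes and 3 of the 5 passed the test of the replicate number in limma. psaA, for a reaction centre protein, was 3.24 higher in control and 2.92 in 35S-PaWRKY1, and psaB, its partner, 1.03 and 0.96. ycf3, another assembly gene of photosystem I, was 1.84 and 1.74 higher, close to psaI. psaJ, a small subunit gene, was 0.00 and 0.21 higher, and did not pass (adjusted p 0.842 in limma).

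The genes of the plastid-encoded RNA polymerase itself had the largest median distance among the function lists of plastid-encoded genes, at 3.10 in control and 3.15 in 35S-PaWRKY1, with 3 of 4 past the test of the replicate number in limma. rpoB was 3.07 and 3.12 higher, rpoC1 3.49 and 3.17, and rpoC2 3.14 and 3.32. rpoA was 0.54 and 0.46 higher and did not pass, at an adjusted p of 0.217. ATP synthase genes had medians of 1.84 and 1.91 and 5 of 6 past the test, and the mixed list of clpP, matK, ccsA and cemA 1.87 and 1.63, with 3 of 4 past it. Cytochrome b6f genes had 3 of 6 past it and medians of 1.31 and 1.30. Ribosomal protein genes had 5 of 15 past it, with medians of 1.38 and 1.70. Photosystem II genes had 4 of 15, with medians of 0.81 and 1.04, and NDH complex genes 4 of 10, with 0.72 and 0.69. In the genotype comparison of limma, 0 of the 65 other plastid-encoded genes passed, where 0.0308% of all probe sets did (7 of 22746). Their differences were -0.26 to 0.36, with a median of 0.04. Their median SE was 0.49, against 0.12 over all probe sets, so a difference of a given size was harder to call among them. The smallest adjusted p was 0.417, for the photosystem II gene psbZ. Of the 65 it was the 1 gene at an unadjusted p under 0.05 in limma, as were 1821 of the 22746 probe sets. With the replicate number as a block, 0 of the 65 passed as well, where 6 of the 22746 did. There psbZ had an adjusted p of 0.306 in limma.

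The search for genes like each of the 4 used the values by which the 4 were chosen, so it is a description. It covered only probe sets given a gene name, so those with no gene or several genes listed could not appear. Within that limit, the genes most like each of the 4, by the smallest root mean square difference over the 6 arrays, were all plastid-encoded. For psaI they were ycf3 (0.098), ndhK (0.10) and petA (0.11). For ycf4 they were the ribosomal protein gene rps2 (0.16), ndhK (0.20) and the ribosomal protein gene rpl16 (0.20). For accD they were rps2 (0.19), psaA (0.26) and rpoC1 (0.26), and for rbcL rps15 (0.26), rpoC2 (0.30) and the ATP synthase gene atpA (0.34). The measure compares values of the same arrays, and a gene with a flat profile cannot score well against these 4.

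Nuclear genes for partners of these proteins stayed near 0 on every array, as far as they could be matched. Of 13 listed genes for the Rubisco small subunit, activase and assembly, 1 was matched, RCA, the Rubisco activase gene, whose values ran from -0.06 to 0.06 over the 6 arrays. Of 18 listed nuclear genes for photosystem I, 2 were matched. PSAE-1 ran from -0.03 to 0.10, and PSAN from -0.15 to 0.21. All 3 had an adjusted p of 0.839 or above for the replicate number and of 0.726 or above for the genotype in limma. Of the listed nuclear genes for acetyl-CoA carboxylase, for sigma factors and phage-type polymerases and for plastid RNA maturation, 0 were matched, so their values are not given.

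Several array-wide measures were set beside the plastid values. The shoot markers RCA, LHCB4.1 and SBPASE, 3 matched of 10, averaged 0.01 and 0.03 on the replicate 3 arrays of control and 35S-PaWRKY1 and -0.06 to 0.05 on the others. Singly they did not go the same way. The distance of replicate 3 in control and 35S-PaWRKY1 was 0.17 and 0.14 for SBPASE. It was -0.10 and -0.07 for RCA and -0.04 and 0.0032 for LHCB4.1. The root markers XTH26 and PYK10, 2 matched of 10, went opposite ways on the replicate 3 arrays, where XTH26 read 0.17 in control and -0.45 in 35S-PaWRKY1 and PYK10 -0.37 and 0.40. Between the genotypes XTH26 differed by -0.39 (SE 0.13, limma adjusted p 0.505, unadjusted 0.018). Of these 5 markers, 0 passed for the replicate number in limma, where 0.426% of all probe sets did. The 18 hybridisation control probe sets, for spiked bacterial and phage sequences, averaged -0.29 and -0.40 on the replicate 3 arrays and 0.06 to 0.26 on the other 4. The 25S ribosomal RNA probe set read 1.67 on control replicate 3 but -0.99 on 35S-PaWRKY1 replicate 3, with -1.27 to -0.54 on the other arrays. The 5S ribosomal RNA probe set read -0.10 and -0.18 on the replicate 3 arrays and -0.03 to 0.06 on the others. The 3' minus 5' difference of actin was -0.04 and -0.19 on the replicate 3 arrays and -0.06 to 0.27 on the others, and that of GAPDH -0.08 and 0.06 against -0.01 to 0.09. That of ubiquitin was -0.0047 and -0.14 on the replicate 3 arrays and -0.18 to 0.14 on the others. The hybridisation controls and 5S ribosomal RNA were lower on both replicate 3 arrays, and their part in the plastid values was not tested.

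**Figure D4:**
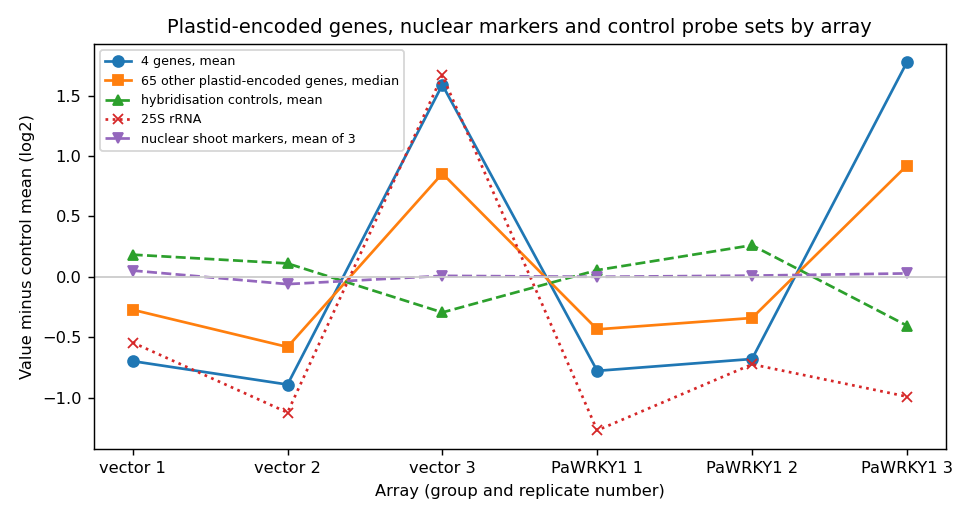
Mean of the 4 genes, median of the 65 other plastid-encoded genes, mean of 18 hybridisation controls, 25S ribosomal RNA and mean of 3 nuclear shoot markers (y axis, log2 difference from the control mean) on each array (x axis). The plastid lines are high on both replicate 3 arrays (means of 1.59 and 1.78 for the 4 genes), and the hybridisation controls are low on both. The mean of the 3 shoot markers stays between -0.06 and 0.05.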

How the data were processed

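Biotin-labelled cRNA of total RNA was hybridised to 6 Affymetrix arrays, per the labels' protocols. The deposited values were taken as log2 because RMA commonly gives that base. MAS5 and RMA are named, without version or role, per the submitters' processing notes. Log base, direction and between-array normalization were not given in the sources used here. The 3 control values of each probe set average 0. Array medians ran from -0.046 to 0.014, and no further normalization was applied.

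Of 22810 probe sets, 64 Affymetrix controls were left out of the tests. Names came from the platform annotation of GEO, possibly outdated, through entrez_id to RefSeq's table of TAIR10.1: 13513 probe sets had 1 gene (13436 of them matched in that table), 503 several and 8730 none listed, and probe sets with several genes were left unnamed. No genome of a stated build was used, so no coordinates or sequences are given.

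Tests used limma 3.58.1 (lmFit, eBayes) under R 4.3.3 over all 22746 probe sets, two-sided, with Benjamini-Hochberg adjustment and a threshold of 0.05. The genotype was fitted without a block, and the replicate number by a moderated F test beside the genotype. The fits were run on simulated data with planted differences and independent noise, with no effect shared by all probe sets of an array. That checked only the recovery of planted differences, not the rate of false calls. Deviations from the group means of same-numbered arrays correlated by 0.314, 0.194 and 0.453 for numbers 1 to 3 (0.300, 0.151 and 0.404 without plastid genes). On that basis the genotype was also fitted with the replicate number as a block, though the labels state no pairing. Every genotype SE and p-value not named as blocked is without the block.

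The 4 genes and the lists were chosen with earlier results of these data known. Named genes were the 4, their neighbours, up to 4 per list with the smallest genotype p, any past the threshold and the 3 most like each of the 4. ndhC, ndhK, psaC, psbD, psbN and ndhF were named after their values were seen, as were the control probe sets and the distance of replicate 3 from the other arrays. Plots were made in Python 3.11.15 with matplotlib 3.10.9.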

Additional observations from a re-analysis of the deposited data

How the results depend on the processing

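The count of 7 probe sets for the genotype was 11 with array weights, 1 with robust eBayes, 0 after equal quantiles (1022 at an unadjusted p under 0.05 in limma) and 0 without both replicate 3 arrays (1914), a setting chosen after seeing the data. With the replicate block it was 6. Leaving out single arrays gave 0 to 1, with 0 without 35S-PaWRKY1 replicate 2 (1062 at an unadjusted p under 0.05). The count of 97 for the replicate number was 96 with median centring, 102 with robust eBayes, 0 after equal quantiles and 7 without both replicate 3 arrays, where number 1 was set against number 2. Among the 65 other plastid-encoded genes the last 2 settings gave 0 calls in limma, with 53 and 2 at an unadjusted p under 0.05. The cause of these shifts was not tested. Leaving out a single array made the replicate numbers unequal between the groups. Genotype differences then ran from -1.05 to 0.75 for rbcL, -0.70 to 1.20 for accD, -0.48 to 0.79 for psaI, -0.68 to 0.87 for ycf4 and -0.38 to 0.51 for the median of the other plastid-encoded genes. The distance of replicate 3 stayed at 1.62 or above in both genotypes for all 4 genes after equal quantiles and after median centring. Each gene had 1 probe set, so no comparison of probe sets within a gene was run. With 3 arrays per group, precision is limited throughout.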

Other observations

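Not every plastid-encoded gene was high on the replicate 3 arrays. Of the 65 genes beside rbcL, accD, psaI and ycf4, 55 were higher on replicate 3 than the mean of the other two arrays in both genotypes, 5 were lower in both and 5 had unlike signs. The 5 lower genes were petD, psbN, rps14, psbD and ndhF. petD, for a cytochrome b6f subunit, was the 1 that passed the limma test of the replicate number among them (adjusted p 0.00896), at -2.48 in control and -2.40 in 35S-PaWRKY1. Its neighbour petB, for cytochrome b6, had the opposite sign, at 1.21 and 1.41 (adjusted p 0.0221). psbN, a small gene of photosystem II assembly, was at -1.13 and -0.76, and its neighbour psbH, a photosystem II subunit gene, at 2.00 and 2.18.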
